A study of Mus musculus with 12 samples.

Results

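The Hox cluster genes of the mouse were followed in RNA sequencing libraries of the striatum. They were taken from the deposited transcript table as every row whose gene symbol is Hoxa, Hoxb, Hoxc or Hoxd followed by a number. This gave 149 transcripts of 39 genes, out of 189660 transcripts and 52169 gene symbols in the table. All mice were C57BL/6J and carried a lesion made with 6-OHDA, a toxin that kills dopamine neurons, injected into the medial forebrain bundle of the right hemisphere after desipramine, which spares noradrenergic neurons. All were then given L-DOPA, the precursor of dopamine, at 10 mg/kg together with benserazide at 7.5 mg/kg, which blocks conversion of L-DOPA outside the brain. The mice were killed 1 hour after a single dose (acute) or after the last of 9 daily doses (chronic). RNA came from punches of the lesioned or the unlesioned striatum, with 3 libraries in each of the 4 groups: acute unlesioned, acute lesioned, chronic unlesioned and chronic lesioned. No saline group was analysed here, so a rise of a Hox gene could be looked for only between the lesioned and the unlesioned side of L-DOPA-treated mice, and between chronic and acute treatment.

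Hox genes encode homeodomain transcription factors that give cells of the embryo their position along the head-to-tail axis. They lie in 4 clusters in which gene order follows the order of their expression domains, with paralogue group 1 most anterior and group 13 most posterior, and their expression in the nervous system reaches forward only to the hindbrain. In the forebrain they are textbook targets of the Polycomb complexes, which place and read trimethylation of histone H3 at lysine 27 and keep developmental genes silent. The study asked whether dopamine signaling lifts such repression, and it assayed Hoxa2 beside Atf3, Klf4 and Npas4 as a gene that carries this trimethylation mark. The question addressed with the counts was which Hox genes are detectable in the striatum and whether any is higher on the lesioned side or after chronic L-DOPA.

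The promoters of a pair of Hox genes and of a pair of genes that rose on the lesioned side are shown to set the CpG content of undetected and induced genes side by side. The sequences are those of RefSeq (GRCm38.p6), 250 bases before to 50 bases after the annotated start, on the strand of the gene, with every CG in capitals. Each occurs at a single place in the mm9 genome, and the windows of Hoxd1 and Hoxa2 begin 250 bases before the start that the transcript table gives for them.
Hoxd1, chr2:74600787-74601086 (mm9), + strand: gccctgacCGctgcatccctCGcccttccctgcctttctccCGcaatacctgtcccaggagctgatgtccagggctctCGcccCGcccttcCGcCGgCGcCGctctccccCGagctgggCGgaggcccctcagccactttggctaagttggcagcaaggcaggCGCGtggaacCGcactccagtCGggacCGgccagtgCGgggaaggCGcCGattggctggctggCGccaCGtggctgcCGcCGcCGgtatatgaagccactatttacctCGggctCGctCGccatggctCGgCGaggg
Hoxa2, chr6:52114781-52115080 (mm9), - strand: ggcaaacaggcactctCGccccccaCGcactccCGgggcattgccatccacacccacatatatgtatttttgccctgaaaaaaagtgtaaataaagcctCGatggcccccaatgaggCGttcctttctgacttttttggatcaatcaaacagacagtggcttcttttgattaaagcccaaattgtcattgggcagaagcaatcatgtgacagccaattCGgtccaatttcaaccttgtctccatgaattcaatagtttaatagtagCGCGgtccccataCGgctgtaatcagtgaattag
Atf3, chr1:193007163-193007462 (mm9), - strand: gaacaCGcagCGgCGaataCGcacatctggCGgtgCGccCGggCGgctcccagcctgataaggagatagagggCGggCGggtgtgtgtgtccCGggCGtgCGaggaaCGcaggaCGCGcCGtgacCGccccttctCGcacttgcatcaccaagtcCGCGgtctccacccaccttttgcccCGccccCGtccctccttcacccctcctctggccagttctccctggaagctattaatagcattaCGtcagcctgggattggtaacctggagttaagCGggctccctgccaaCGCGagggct
Klf4, chr4:55545298-55545597 (mm9), - strand: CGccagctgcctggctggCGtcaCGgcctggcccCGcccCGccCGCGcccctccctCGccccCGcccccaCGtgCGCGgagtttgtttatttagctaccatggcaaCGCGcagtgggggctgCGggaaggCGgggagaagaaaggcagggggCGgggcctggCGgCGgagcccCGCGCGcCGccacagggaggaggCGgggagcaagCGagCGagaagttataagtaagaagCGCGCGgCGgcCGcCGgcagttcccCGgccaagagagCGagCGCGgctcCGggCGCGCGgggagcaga

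The Hoxd1 window held 29 CG dinucleotides and that of Hoxa2 held 9, against 27 in Atf3 and 40 in Klf4. Windows of 300 bases were found for 22 of the 39 Hox genes, 24 windows in all, and they held a median of 14.5 CG (range 4 to 45), compared with a median of 7 over 32851 windows of all genes. At least 15 CG were present in 12 of the 24 Hox windows and in 34.6% of all windows. The full cAMP response element TGACGTCA, which reads the same on both strands, was in 0 of the 24 Hox windows and in 1.79% of all windows. The letters TATAAA, searched on both strands, were in 4 Hox windows (16.7%) and in 13.6% of all windows. These are descriptions of letters and not of bound sites.

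The libraries held 87695043 to 173116525 counts over all transcripts. Reads were assigned to each of the transcripts they touch, so the totals over a single transcript per gene were lower, 18373819 to 36492587. A count of 0 allows up to 3 counts, which is 0.0173 to 0.0342 counts per 1000000 counts of the library (CPM) in a single library and 0.00678 to 0.00960 CPM over the 3 libraries of a group. These limits cover counting error only. The tissue label was borne out by its markers, since 8 of 8 genes of striatal projection neurons were detected. Also detected were 4 of 4 oligodendrocyte, 4 of 4 astrocyte, 5 of 5 microglial, 6 of 6 endothelial, 5 of 5 mural, 5 of 5 fibroblast and meningeal, 3 of 3 blood, 3 of 5 leukocyte, 3 of 4 choroid plexus and 5 of 5 cortical glutamatergic markers. The second chronic unlesioned library stood apart, with 53845 counts of the choroid plexus gene Ttr against at most 164 in the other libraries.

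No Hox gene was detected by the criterion used here, more than 3 counts in all 3 libraries of a group, whereas 43.9% of all gene symbols were detected in at least 1 group. Of the 149 Hox transcripts, 104 (69.8%) had no count in any of the 12 libraries, compared with 10.3% of all transcripts. By gene, 24 of 39 (61.5%) had no count at all, compared with 24.7% of all genes. The highest count of any Hox transcript in any library was 7. For the following values a gene is represented in each library by its transcript with most counts. Of the 468 combinations of gene and library, 39 held a count, 22 of these a single count, and 3 were above 3 counts. All Hox genes together had 70 counts out of 1454382359, or 4.81 per 100000000, and 46 of these (65.7%) fell on Hoxd1, Hoxa7 and Hoxb4. Leaving out any single library did not bring a Hox gene over the criterion.

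**Figure D1:**
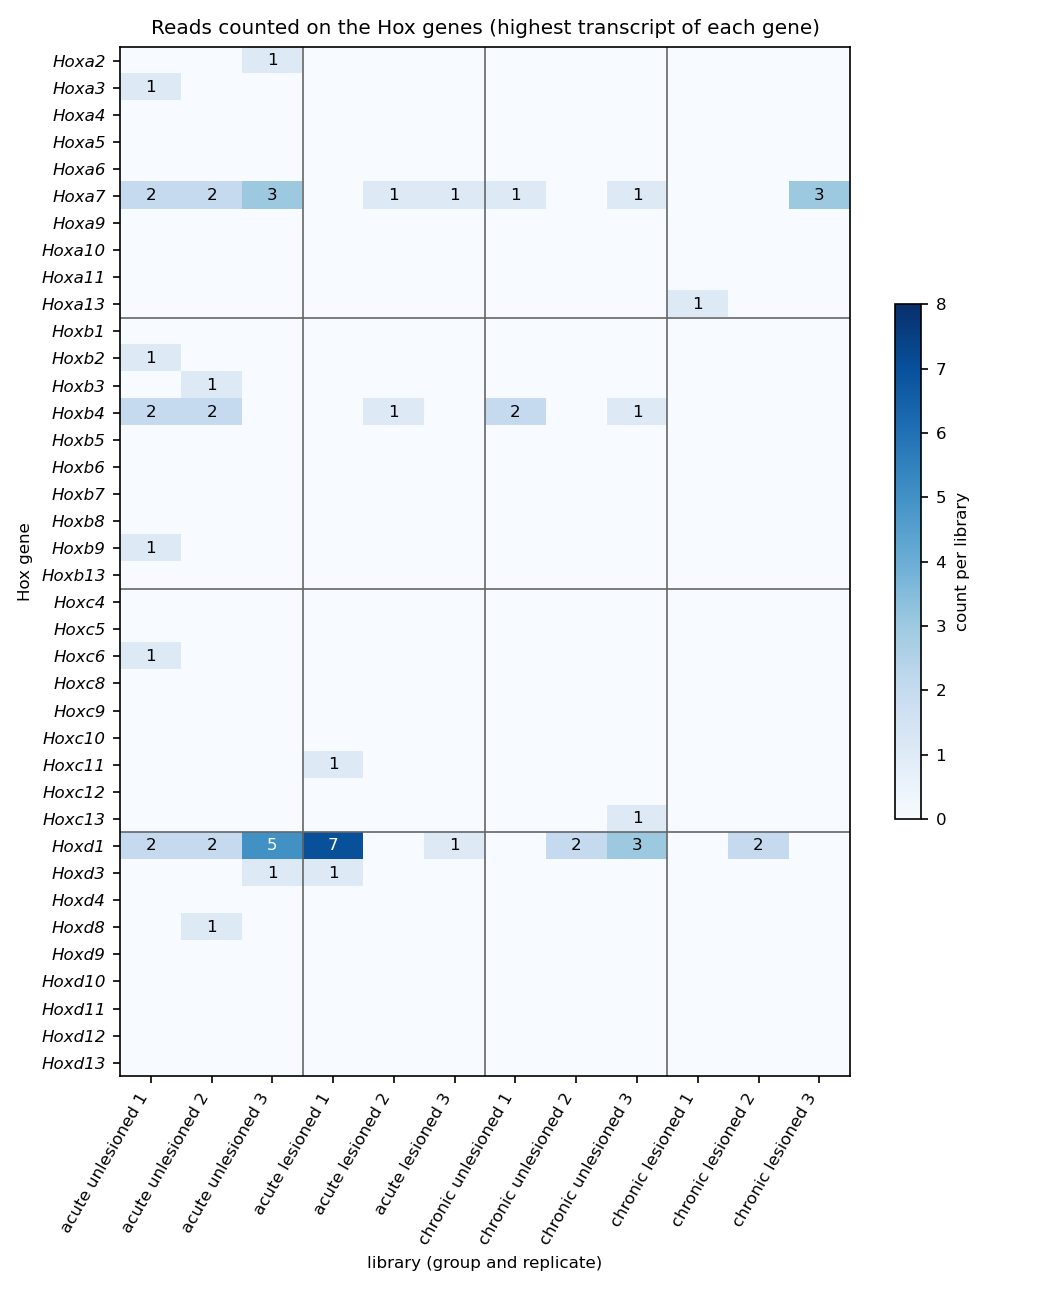
Counts of 38 of the 39 Hox genes (rows, grouped by cluster) in the 12 libraries (columns, grouped by treatment and side). Each cell gives the count of the gene's highest transcript, and empty cells are 0. The highest value is 7, for Hoxd1 in an acute lesioned library, and 24 rows are empty.

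Hoxd1 (chr2:74601037-74603199, mm9, + strand, 2 exons), an anterior gene of the Hoxd cluster, had the most counts, 24 in all. They were 2, 2 and 5 in the acute unlesioned libraries, 7, 0 and 1 in the acute lesioned, 0, 2 and 3 in the chronic unlesioned and 0, 2 and 0 in the chronic lesioned libraries. All 4 groups overlapped, and each of them except the acute unlesioned group held a library without a count. Summed over a group this was 0.0203 CPM in acute unlesioned and 0.0242 CPM in acute lesioned striatum, a ratio of 1.19 with a 95% counting interval of 0.399 to 3.47 (exact conditional binomial). Without the first acute lesioned library the acute lesioned group was left with 1 count. After chronic L-DOPA the lesioned side stood at 0.265 times its acute level (interval 0.0274 to 1.33) and the unlesioned side at 0.667 times (0.176 to 2.22), both intervals holding 1. Scaled to transcript length, the level of Hoxd1 was 0.00807 CPM per kilobase over the 12 libraries, which is close to the median of all gene symbols (0.00807), and no other gene of the clusters was higher.

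Hoxa7 (chr6:52164490-52170392), a gene of the trunk, had 2, 2 and 3 counts in acute unlesioned, 0, 1 and 1 in acute lesioned, 1, 0 and 1 in chronic unlesioned and 0, 0 and 3 in chronic lesioned libraries. Scaled to library size its acute unlesioned values lay above those of the acute lesioned and of the chronic unlesioned group without overlap, but no library exceeded 3 counts. Hoxb4 (chr11:96179581-96182952), expressed in the embryo from the posterior hindbrain backwards, had 2, 2 and 0 counts in acute unlesioned, 0, 1 and 0 in acute lesioned, 2, 0 and 1 in chronic unlesioned and none in chronic lesioned libraries. The levels per length of Hoxa7 and Hoxb4 were 0.00385 and 0.00206 CPM per kilobase. For neither gene is a ratio given, since all libraries were at or under 3 counts. The library kit does not mark strand, and 14 of the 39 Hox genes, Hoxa7 among them, overlap an annotated transcript on the opposite strand, and reads in the shared stretch cannot be assigned to a strand. For Hoxa7 the partner, 2700086A05Rik, had 2 counts in all, and a Hoxa7 transcript that lies outside it (NM_010455) had 7. Hoxd1 and Hoxb4 overlap no transcript of another gene.

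Hoxa2 (chr6:52112416-52114830), the selector gene of the second pharyngeal arch and the Hox gene that the study assayed, had 1 count in the third acute unlesioned library and none in the other 11. Over the 3 acute lesioned libraries its count of 0 allows up to 0.00907 CPM, and over the 3 chronic lesioned libraries up to 0.00960 CPM. Hoxd3 had 1 count in an acute unlesioned and 1 in an acute lesioned library. The remaining counted genes, Hoxa3, Hoxa13, Hoxb2, Hoxb3, Hoxb9, Hoxc6, Hoxc11, Hoxc13 and Hoxd8, had 1 count each. Counting Hoxa2, 10 genes rested on a single count. None of the 24 genes without counts, with 87 transcripts, can be called absent beyond the limits given above.

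The counts were concentrated at the anterior end of the clusters. In paralogue groups 1 to 4, 8 of 12 genes had a count and 50 counts in all. In groups 5 to 8 there were 3 of 11 genes with 16 counts, 14 of them on Hoxa7, and in groups 9 to 13 there were 4 of 16 genes with 4 counts. By cluster, Hoxa had 29 counts on 5 of 11 genes, Hoxd 27 on 3 of 9, Hoxb 11 on 4 of 10 and Hoxc 3 on 3 of 9.

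**Figure D2:**
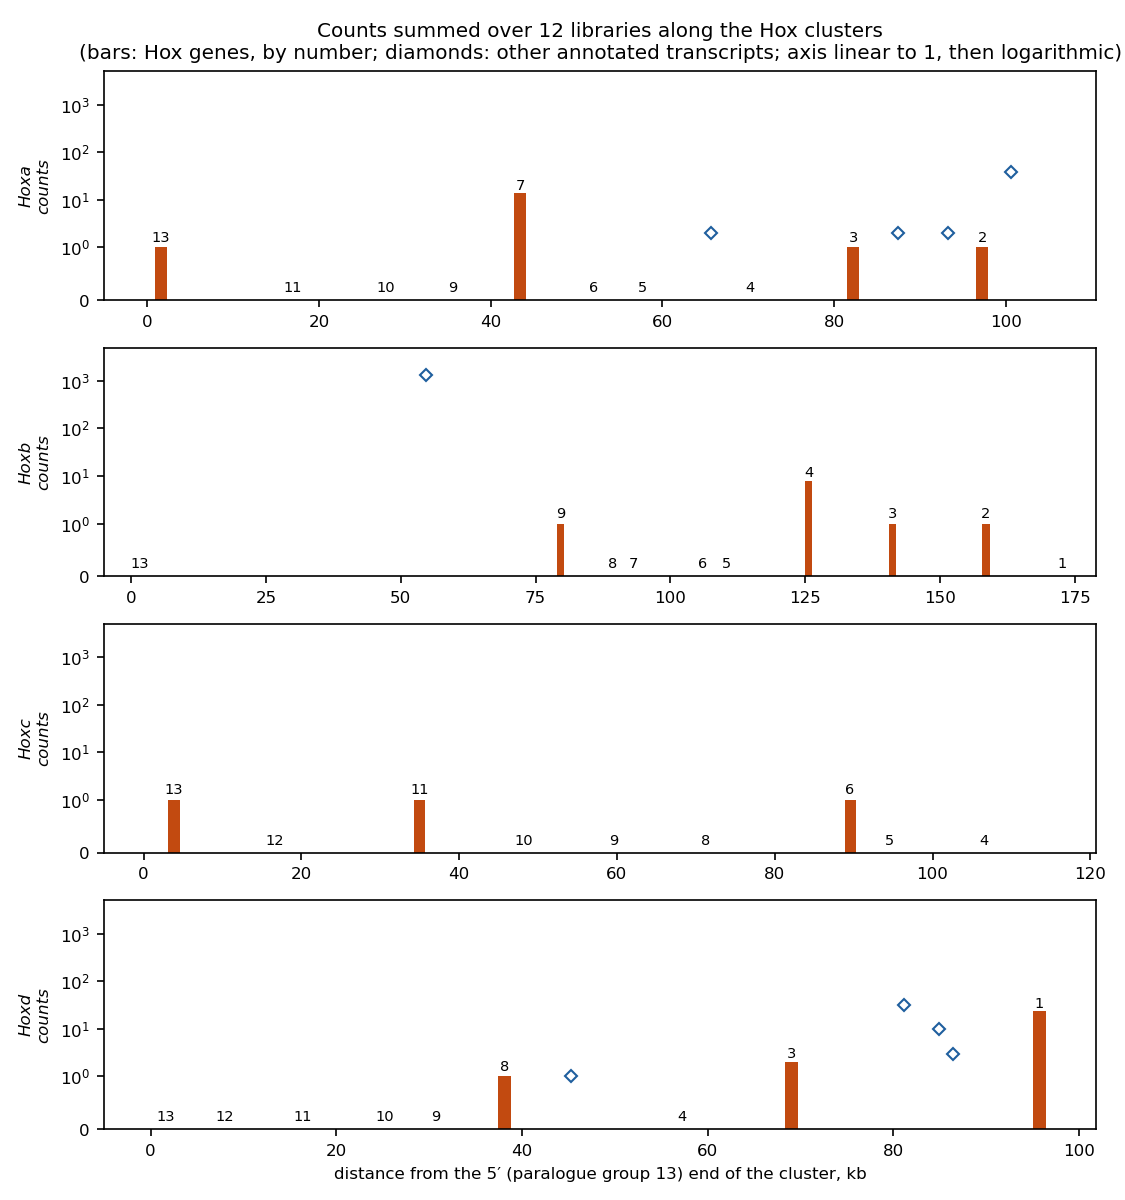
Counts of 38 of the 39 Hox genes, summed over the 12 libraries, along the 4 clusters, against distance in kb from the posterior (group 13) end. Bars are Hox genes with their paralogue number, diamonds are other annotated transcripts with counts, and the vertical axis is linear up to 1 and logarithmic above. Hoxd1 stands at the anterior end of its cluster, and the 1344 counts within the Hoxb cluster were counted on a pseudogene nearly identical to Rpl18.

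Within the span of the clusters the table lists 74 transcripts that are not Hox genes, of which 23 had counts and 8 had more than 3 in some library. The highest was ENSMUST00000119837 (chr11:96109947-96110503), annotated by GENCODE as the transcribed processed pseudogene Gm11539 and lying between Hoxb13 and Hoxb9. It had 148, 119 and 110 counts in acute unlesioned, 156, 90 and 113 in acute lesioned, 112, 98 and 135 in chronic unlesioned and 55, 103 and 105 in chronic lesioned libraries. Its 557 bases match the coding gene Rpl18 with 96.8% identity over 567 aligned positions, gaps included, so its counts cannot be told from reads of Rpl18, whose most counted transcript had 239 to 402 counts. On the lesioned side after acute L-DOPA it differed by 0.39 on the log2 scale (SE 0.12), with an adjusted p of 0.05002 by edgeR. LOC100504068 (GENCODE Gm15051), beside Hoxa2 and on the opposite strand, had at most 9 counts, and 6720416L17Rik, which overlaps Hoxd3 on the opposite strand, at most 7. Hoxb13 and Hoxb9, the Hox genes on either side of the pseudogene, had 0 and 1 count.

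The comparison of the lesioned with the unlesioned side after acute L-DOPA asked whether a Hox gene was derepressed 1 hour after the drug. With the filter on low counts, edgeR tested 129674 transcripts and called 12.9% of them at an adjusted p under 0.05, but none of the 149 Hox transcripts had enough counts to be tested. Without the filter, 42 Hox transcripts of 13 genes entered the fit, and 0 were called, against 11.2% of all 165743 transcripts. At an unadjusted p under 0.05 there were also 0 Hox transcripts, by edgeR and by DESeq2, compared with 24.3% of all transcripts by edgeR. For most of these genes the outcome was set by the counts, since a gene with 1 count in these libraries gave a p of 0.292 to 0.401 and could not pass, so the 0 calls cannot be read against the share of all transcripts. Fitted values were higher on the lesioned side for 11 and lower for 31 of the 42. Over the Hox transcripts the lowest adjusted p was 0.446, for a transcript of Hoxa7. On the most counted transcript of each gene the adjusted p was 0.911 for Hoxd1, 0.638 for Hoxb4 and for Hoxa2, and 0.555 for Hoxa7 (edgeR quasi-likelihood test without the filter, Benjamini-Hochberg over all transcripts). Of the 13 Hox genes with a count in these libraries, 0 were higher on the lesioned side without overlap of the groups (10.1% of all genes with counts) and 1, Hoxa7, was lower (13.4%).

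After chronic L-DOPA, edgeR called 12.0% of 127063 transcripts between the lesioned and the unlesioned side, and again no Hox transcript passed the filter. Without it, 16 Hox transcripts of 6 genes were fitted and 0 were called, against 9.51% of 164931. At an unadjusted p under 0.05 there were 0 by edgeR or DESeq2, compared with 21.4% and 16.9% of all transcripts. As in the acute comparison, the 0 cannot be read against these shares, because of the low counts. The adjusted p was 0.424 for Hoxb4, whose 3 counts were all on the unlesioned side, 0.744 for Hoxd1 and 0.772 for Hoxa7 (edgeR without the filter). No Hox gene was higher or lower without overlap, compared with 8.90% and 13.8% of all genes with counts. That outcome was set by the counts, since no Hox gene had a count in all 3 libraries of either group. With the replicate number as a block, which pairs the chronic libraries, 27505 transcripts were called in place of 15295, and still 0 Hox transcripts with or without the filter.

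Chronic was then compared with acute treatment within each side. On the lesioned side 23.3% of 127463 transcripts were called, no Hox transcript was tested with the filter, and 0 of 24 fitted without it (7 genes) were called, against 18.7% of all. The adjusted p was 0.409 for Hoxd1, 0.558 for Hoxb4 and 0.983 for Hoxa7. On the unlesioned side 2.61% of 129187 transcripts were called, and 0 of 42 Hox transcripts without the filter, against 3.52%. The lowest adjusted p there was 0.364, for Hoxa7. By edgeR and by DESeq2, 0 Hox transcripts had an unadjusted p under 0.05 on either side. Over all transcripts the shares were 30.2% and 23.9% by the 2 tools on the lesioned side, and 18.3% and 12.9% on the unlesioned side. As in the acute comparison, the 0 cannot be read against these shares, because of the low counts. On the lesioned side no Hox gene was free of overlap (12.2% of all genes higher, 15.1% lower), which was again set by the counts. On the unlesioned side Hoxa7 alone was lower after chronic treatment (9.80% of all genes higher, 8.33% lower). There only Hoxa7 and Hoxd1 had a count in all 3 libraries of a group, the acute one, so none could be higher after chronic treatment without overlap. The difference between the chronic and the acute lesion effect was called for 4.52% of 130867 transcripts, of which none was a Hox transcript, and without the filter for 0 of 45 Hox transcripts (15 genes) against 3.32%. Its unadjusted p was under 0.05 for 0 Hox transcripts by both tools, compared with 15.5% of all transcripts by edgeR and 13.1% by DESeq2.

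In the same libraries the other genes assayed as carriers of the mark rose. Atf3, a stress-responsive transcription factor, averaged 14.7 ± 2.84 CPM in acute lesioned and 0.573 ± 0.169 CPM in acute unlesioned striatum (SD, n = 3), a log2 difference of 4.73 (SE 0.19, adjusted p = 8.26e-09, edgeR). Klf4, a pluripotency factor, averaged 4.54 ± 0.675 against 1.47 ± 0.190 CPM (log2 difference 1.67, SE 0.13, adjusted p = 4.71e-06). Npas4, an activity-dependent neuronal factor, averaged 29.5 ± 0.747 against 4.05 ± 0.513 CPM (2.90, SE 0.08, adjusted p = 5.05e-10). Fosb, a marker of the L-DOPA response, averaged 225 ± 19.1 against 9.07 ± 0.540 CPM (4.67, SE 0.08, adjusted p = 3.78e-11). After chronic L-DOPA the 4 genes were again higher on the lesioned side, by 4.80, 1.58, 2.39 and 4.94 on the log2 scale for Atf3, Klf4, Npas4 and Fosb, all past the threshold by edgeR. Hoxa2 thus had 0 counts in the 6 lesioned libraries in which each of these genes was called. The study itself reported, by quantitative PCR after acute L-DOPA, that Hoxa2 mRNA did not change while Atf3, Klf4 and Npas4 rose.

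**Figure D3:**
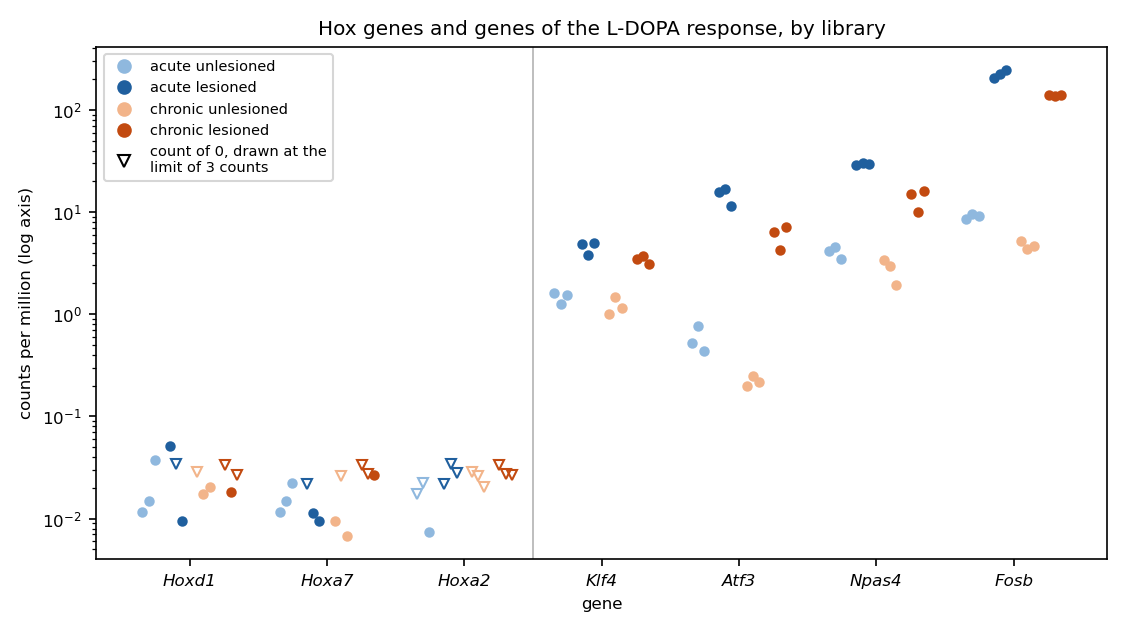
CPM of 3 Hox genes and 4 genes of the L-DOPA response in each library, on a log axis, coloured by group. Open triangles are counts of 0, drawn at the limit of 3 counts in that library. The Hox genes stay at or near that limit in every group, while Klf4, Atf3, Npas4 and Fosb separate the lesioned from the unlesioned libraries.

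Summed over the 39 genes, the Hox counts were lower on the lesioned than on the unlesioned side, which is given as a description without a test. Per 100000000 counts they were 6.35, 5.91 and 10.5 in acute unlesioned libraries, 7.32, 2.28 and 2.82 in acute lesioned, 2.84, 4.31 and 5.43 in chronic unlesioned and 1.11, 1.84 and 2.64 in chronic lesioned libraries. The acute groups overlapped, because the first acute lesioned library held 10 of the 15 counts of its group, 7 of them on Hoxd1. Scaled to library size the chronic groups did not overlap, on 16 and 6 counts, but the raw counts met. The lowest chronic unlesioned and the highest chronic lesioned library both held 3 counts. Their gap, 2.84 against 2.64, came from library size alone, and a single count could close it. The scaled groups also stayed apart without the second chronic unlesioned library, the one with choroid plexus transcripts, which left 2.84 and 5.43. In all, 49 counts were on the unlesioned and 21 on the lesioned side. The 16331 other genes that had counts but were not detected in any group were higher on the lesioned side after acute L-DOPA, with 8776 to 10363 counts on the same scale in acute unlesioned, 11215 to 13251 in acute lesioned, 10679 to 12713 in chronic unlesioned and 9958 to 11378 in chronic lesioned libraries. After chronic L-DOPA these genes were, like the Hox genes, lower on the lesioned side within each of the 3 pairs of libraries, by less, and the groups overlapped. Fewer cells that express a gene and less RNA per cell cannot be told apart in these bulk samples.

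**Figure D4:**
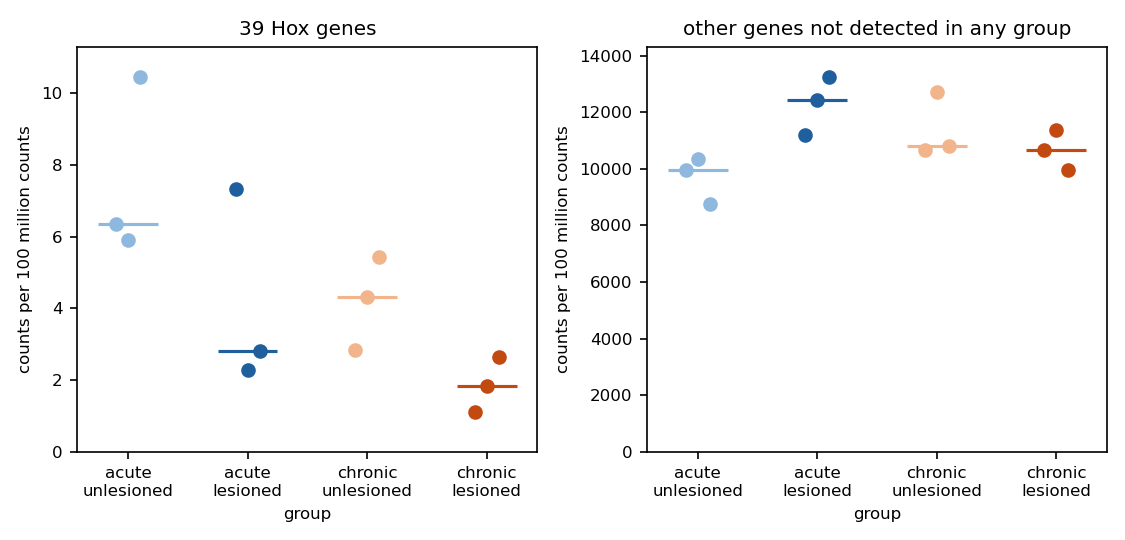
Counts per 100000000 counts of the library on the 39 Hox genes (left) and on the 16331 other genes that were not detected in any group (right), by group. Points are libraries and lines are group medians. The scaled Hox counts of the chronic lesioned libraries, 1.11 to 2.64, lie below those of the chronic unlesioned libraries, 2.84 to 5.43. The libraries at 2.64 and 2.84 both held 3 raw counts and differ by library size only. The other genes overlap between the chronic groups, at 9958 to 11378 and 10679 to 12713, and are higher in the acute lesioned than in the acute unlesioned libraries.

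Markers of other tissue were read beside these sums. Of 7 markers of hindbrain and spinal neurons, cells in which Hox genes are active, 1 was detected, Chat, which cholinergic interneurons of the striatum also express, with 503 to 1131 counts. Of the others, Lbx1 and Slc6a2 had a count of 1 in a single library, and Slc6a5, Phox2a and Tlx3 reached at most 5, 7 and 4 counts. The 7 genes summed to 6.55 to 7.91 CPM in acute unlesioned, 6.43 to 8.27 in acute lesioned, 6.79 to 8.65 in chronic unlesioned and 5.65 to 6.24 in chronic lesioned libraries. These sums were almost wholly Chat, so they are no measure of hindbrain or spinal tissue. The 5 cortical glutamatergic markers summed to 12.2 to 29.0, 1.58 to 14.1, 5.05 to 39.2 and 1.49 to 20.5 CPM in the same order of groups, with none at 0 in any library. On the acute lesioned side 1 of 5 was called lower and none higher (median log2 difference -1.42), and on the chronic lesioned side 0 of 4 tested (median -1.63) by edgeR. With the replicate block 5 of 5 and 3 of 4 were lower, though the replicate numbers pair the chronic libraries only. By their medians these markers moved in the same direction as the summed Hox counts. The part of cortical tissue in the Hox counts was not tested.

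The Hox cofactors of the TALE class, Pbx, Meis and Pknox, which bind DNA together with Hox proteins, were all detected (9 of 9). Their median level was 3.49 CPM per kilobase, whereas the median Hox gene was at 0 and the median of all gene symbols was 0.00807 CPM per kilobase. Pknox2 was lower on the acute lesioned side, at 4.88 ± 0.681 against 8.27 ± 0.368 CPM (SD, n = 3; log2 difference -0.72, SE 0.09, adjusted p = 0.000222, edgeR), the 1 call among 9. After chronic L-DOPA 2 of 9 were higher on the lesioned side and none was lower (with the replicate block 3 higher and 2 lower). Of these 2, Pbx2 lost the call without any 1 of 5 of the 6 libraries, all but the second chronic lesioned, as well as without the filter and with counts summed over transcripts. Over all transcripts tested, 6.85% were higher and 6.02% lower after acute, and 7.71% and 4.33% after chronic L-DOPA.

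Of 9 ParaHox and Hox-linked homeobox genes 2 were detected, Gsx1 and Gsx2, which pattern the embryonic striatum, but their counts were so low that at most 2 of the 9 genes were tested in a comparison, and none was called. Evx1, Cdx1, Cdx2, Cdx4 and Pdx1 had no count, and Evx2 and Mnx1 had 1 count each. Evx1 and Evx2, which lie beside the posterior ends of the Hoxa and Hoxd clusters, were thus as low as their Hox neighbours. By contrast 15 of 15 homeobox genes of the forebrain were detected, at a median of 1.21 CPM per kilobase, with 4 higher and 1 lower of 15 on the acute lesioned side and 1 higher of 14 on the chronic lesioned side (1 higher and 3 lower with the block). Of the 4 higher after acute L-DOPA, Dlx2 and Otx1 each lost the call without any 1 of 4 of the 6 libraries, with all 12 libraries in the fit and with counts summed over transcripts. These libraries were the first and the third acute unlesioned for both genes, the second and the third acute lesioned for Dlx2, and the second acute unlesioned and first acute lesioned for Otx1. Six3, the 1 call after chronic L-DOPA, lost it without the first chronic lesioned library. Isl1, a factor of striatal and cholinergic neurons, had 1.90 ± 0.0912 against 3.36 ± 0.158 CPM after acute L-DOPA (log2 difference -0.78, SE 0.09, adjusted p = 0.000131). Among 25 other developmental regulators that Polycomb is known to silence, 3 were detected, Foxc1, Sox17 and Tbx1, and 8 had no count. Sox17, an endothelial gene, was higher on the acute lesioned side by 0.67 (SE 0.19, adjusted p = 0.0416), a call that was lost without any of 5 of the 6 libraries, all but the first acute lesioned, as well as with all 12 libraries in the fit and with counts summed over transcripts. None of these 3 was called after chronic L-DOPA.

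**Figure D5:**
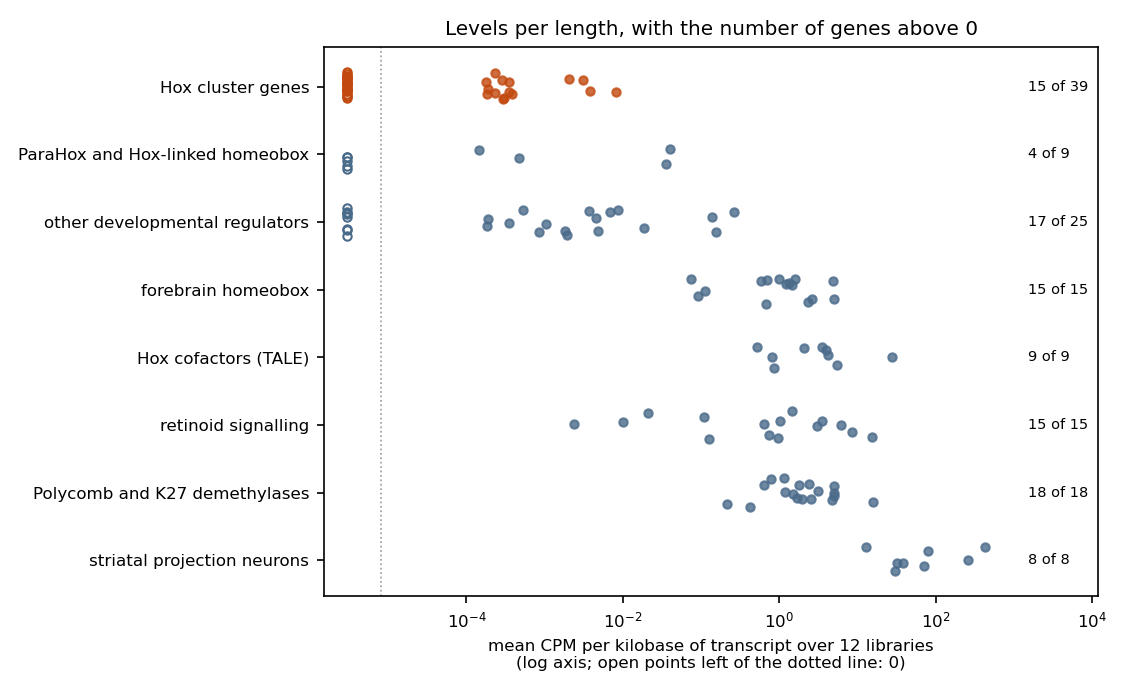
Mean CPM per kilobase of transcript over the 12 libraries for the Hox genes and 7 other gene lists, on a log axis, each point a gene. Open points left of the dotted line are at 0, and the numbers at the right give the genes above 0. The Hox genes have 15 of 39 above 0 and none above 0.00807, while every gene of the cofactor and Polycomb lists is higher.

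The 18 genes of the Polycomb complexes and of the demethylases that remove their mark were all detected, at a median of 1.87 CPM per kilobase. After acute L-DOPA 3 were higher and 1 was lower on the lesioned side, and after chronic L-DOPA 3 were higher and 2 lower. Of the 3 higher after acute L-DOPA, Ezh2 and Cbx8 both lost the call without any 1 of the 3 acute unlesioned libraries and with DESeq2. Ezh2 also lost it without the second acute lesioned library, with 1 transcript for each gene and with all 12 libraries in the fit, and Cbx8 without the first or the third acute lesioned library and with counts summed over transcripts. Kdm6b, a demethylase of trimethylated lysine 27, averaged 49.5 ± 4.23 against 8.21 ± 0.848 CPM after acute L-DOPA (log2 difference 2.63, SE 0.08, adjusted p = 1.15e-09) and 67.1 ± 5.48 against 7.16 ± 0.651 CPM after chronic L-DOPA (3.29, SE 0.10, adjusted p = 1.86e-08). Among 15 genes of retinoid signaling, which switches Hox genes on in the embryo, 14 were detected, with 1 higher and 2 lower of 12 on the acute lesioned side and 2 higher and 1 lower on the chronic lesioned side (3 and 5 with the block). The acute higher call, Rara, was lost without the second acute unlesioned library, and Rxrg, lower, without the first or the third acute unlesioned or the third acute lesioned library and with all 12 libraries in the fit. Of the chronic calls Crabp2, higher, was lost without any 1 of the 6 libraries, with DESeq2, without the filter, with 1 transcript for each gene and with counts summed over transcripts, and Rxra, lower, without the third chronic unlesioned or the first or second chronic lesioned. Rara, a retinoic acid receptor, averaged 5.18 ± 0.379 in chronic lesioned against 0.970 ± 0.0410 CPM in chronic unlesioned striatum (2.48, SE 0.11, adjusted p = 2.17e-07). In the 3 chronic lesioned libraries Hoxa7 had 3 counts, Hoxd1 had 2 and Hoxa13 had 1, and Hoxb4 and Hoxa2 had 0.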

How the data were processed

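RNA of 12 striatal libraries was analysed. Per the labels, libraries were made with a TruSeq RNA kit and reads were aligned to mm9. The deposited table gives whole-number read counts per transcript of the Genomatix list, not normalized by the authors, who assigned reads to each of the transcripts they touch. Settings for strand and for reads with several positions are not given in the sources used here. The deposited normalized expression signal, which the authors scaled by length and library size, was not tested. The authors' 3 comparison tables hold p-values and fold changes from DESeq and 36 columns of per-sample values, none of which were used.

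The 39 Hox genes were matched by symbol, and 296 rows that name no gene (0.0485% of counts) were left out of library sizes and tests. The members and gene lists were chosen with earlier results of these data known. CPM are counts per 1000000 counts on all named transcripts. Comparisons of 2 groups used their 6 libraries, and the difference of lesion effects used all 12, in edgeR 4.0.16 (R 4.3.3), TMM, filterByExpr and the quasi-likelihood test, called at a Benjamini-Hochberg adjusted p under 0.05. The SE of a log2 difference was its size divided by the root of the F statistic. The fits were tested on simulated data. Alternatives were DESeq2 1.42.0, its size factors, no filter, 1 transcript for each gene, a threshold of 0.01, the sum over transcripts, all 12 libraries in the fit, a replicate block and each library left out. Genes outside the clusters were named by a rule: the 4 genes of the L-DOPA response, and at most 3 called members per list and comparison, those with the largest change. ENSMUST00000119837, Rpl18, LOC100504068, 6720416L17Rik, 2700086A05Rik, the marker genes and the uncalled list members given with counts were chosen after their values were seen. A few genes of these lists are not reported here. Similarity of the pseudogene to coding transcripts was found with blastn. Python 3.11.15 with pandas 2.3.3 and matplotlib 3.10.9 served for the tables and plots.

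After subtraction of group means, libraries of the same number correlated across genes by 0.273, 0.370 and 0.145 between the chronic sides, all above the limit of 0.1, and by 0.222, 0.169 and 0.005 between the acute sides, so the numbers pair the chronic libraries only. The labels count 12 mice for 12 libraries, while the paper presents the unlesioned side as a control within each mouse. Between replicates, chi-square over its degrees of freedom was 5.0 to 18.0, so no library was a copy of another. Where libraries share a mouse or a dissection, p-values measure the spread between these libraries only.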

Additional observations from a re-analysis of the deposited data

Results flagged for a closer look

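No Hox gene was picked out, since groups of 3 libraries were not examined for outlying values and no Hox transcript was called. For 8 genes of the cofactor, forebrain homeobox, retinoid and Polycomb lists the effect of the lesion side differed between chronic and acute L-DOPA by the interaction term of edgeR (all 12 libraries). The difference was 1.94 on the log2 scale for Rara (adjusted p = 3.23e-06), 0.66 for Kdm6b (adjusted p = 0.00744), 0.92 for Isl1 (adjusted p = 0.00636) and 0.62 for Pknox2 (adjusted p = 0.0113), each more positive after chronic treatment. It was -0.58 for Cbx7 (adjusted p = 0.00153). These 5 kept the call at an adjusted p under 0.05 in all 20 alternatives each, which leave out the threshold of 0.01. Pknox2 was over that threshold, as were Pbx2, Six3 and Lhx8 below. The difference was 0.40 for Pbx2 (adjusted p = 0.0249), 0.48 for Six3 (adjusted p = 0.0462) and -0.84 for Lhx8 (adjusted p = 0.0492). The call for Pbx2 was lost without any of 8 libraries (all but the third acute lesioned, the first and second chronic unlesioned and the second chronic lesioned), that for Six3 without any of 9 (all but the first acute unlesioned, the second chronic unlesioned and the second chronic lesioned) and that for Lhx8 without any of 11 (all but the third chronic lesioned). Six3 also lost it with counts summed over the transcripts of a gene, and Lhx8 with that sum and with a single transcript per gene.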

How the results depend on the processing

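The count of Hox transcripts called was 0 in all 5 comparisons under all 85 fits, but 70 of these tested no Hox transcript, and in the 15 fits without the filter on low counts most Hox genes had 1 or 2 counts, which cannot pass the threshold, so that these 0 calls say little about stability. These include the replicate block and DESeq2 without the filter, both chosen after seeing the data, and the cause of so few tested transcripts is the low count itself. Fold changes of named Hox genes under the alternatives were not run, because no Hox gene passed the filter. The count of detected Hox genes was 0 with at least 10 counts in all libraries of a group and without any single library, 2 with at least 1 count (Hoxa7 and Hoxd1, in acute unlesioned) and 2 with more than 3 counts in any 1 library (Hoxd1 among them). With the replicate block the number of all transcripts called went from 16684 to 28237 in the acute, from 15295 to 27505 in the chronic comparison and from 5911 to 15875 for the difference of lesion effects. Every chronic library, and every acute library but the third of each side, correlated best with the library of its own number on the other side, which is a hint from the data and not the design. With the block the pseudogene ENSMUST00000119837 was called in the acute comparison (adjusted p = 0.03400, edgeR), and Fosb was newly called in the difference of lesion effects. Between chronic and acute treatment Klf4 was no longer called on the lesioned side and Npas4 was newly called on the unlesioned side. The block has no pairing to rest on there, since libraries of the same number correlated by -0.062 to 0.095 between treatments. At an adjusted p under 0.01 the numbers were 6707, 7079, 12545, 108 and 2474 in the order of the report, against 16684, 15295, 29698, 3366 and 5911. In the unlesioned comparison DESeq2 called 6278 and edgeR without the filter 5821, and with all 12 libraries the chronic comparison called 22946. Leaving out a library gave 9547 to 15328, 9137 to 14864, 16025 to 36534, 66 to 14377 and 3794 to 9536. The uncalled difference of lesion effects turned sign for Atf3 (main value 0.08, -0.15 to 0.29 with a library left out) at -0.15 without acute unlesioned replicate 2, -0.08 without acute lesioned replicate 3 and -0.09 without chronic lesioned replicate 3, and for Klf4 (main value -0.09, -0.20 to 0.08) at 0.03 without acute unlesioned replicate 2 and 0.08 without chronic unlesioned replicate 2, and the cause was not tested.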
